A study of Mus musculus with 12 samples.

Results

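The genes described here mark macrophages and other immune cells or carry out their work: 11 surface and secreted markers of resident macrophages, 4 lysosome and granule genes, 8 pan-leukocyte and myeloid signalling genes, 4 genes of MHC class II presentation, 3 of MHC class I presentation and 5 of complement. These 35 genes were chosen by name as markers, with earlier results of these data known. All 35 were present, each as 1 of the 21669 transcript names in every count table. They were measured in left ventricular tissue of adult mouse hearts in 4 groups of 3 libraries, described as biological triplicates. Wild-type hearts (WT) and hearts lacking *Rpl3l* (Rpl3l-/-, KO), a striated muscle paralog of the ribosomal protein gene *Rpl3*, were each sampled by poly(A) RNA sequencing (RNA) and by ribosome profiling, which counts stretches of mRNA shielded by ribosomes during RNase I digestion (footprints, RPF). The labels do not give the strain, sex or exact age, or how the *Rpl3l* allele was made, and no agent other than those of the lysis and digestion is named. The lysate was of whole tissue and no cells were sorted, so each value is the part of a whole-ventricle signal that comes from whichever cells express the gene.

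Macrophages are the most common leukocytes of the healthy heart, where they live between the cardiomyocytes, take up debris and dying cells, and are partly self-renewing and partly replaced from blood monocytes. Resident cardiac macrophages in mice are commonly divided by *Timd4*, *Ccr2* and surface MHC class II. MHC class II molecules show peptides from engulfed material to T cells. They are dimers of an alpha chain and a beta chain that assemble on the invariant chain Cd74, which the protease cathepsin S later trims away. MHC class I molecules, made by nearly all cells, pair a heavy chain with beta-2 microglobulin and show peptides from inside the cell. Complement protein C1q, made largely by macrophages in many tissues, starts the classical pathway, in which C4 and then C3 are cleaved and attached to a target.

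Transcription of class II genes is classically driven through a conserved promoter module in which the X box is bound by the RFX complex and the Y box by NF-Y, with Ciita as the coactivator. The promoters of *H2-Aa* and *H2-Eb1*, 2 genes that were higher in KO in both assays, are shown beside those of the class I genes *H2-D1* and *H2-K1*, which were not. Each runs from 250 bases before to 50 bases after the listed start, 5′ to 3′ on the gene's strand, as given by RefSeq for GRCm38.p6. Capitals mark exact matches to CTGATTGG, taken for the Y box, and to CTNGCAAC, taken for the core of the X box. Both strands were searched, so that a match on the opposite strand is printed as CCAATCAG or as GTTGCCAG.
H2-Aa (chr17:34287774-34288073, minus strand): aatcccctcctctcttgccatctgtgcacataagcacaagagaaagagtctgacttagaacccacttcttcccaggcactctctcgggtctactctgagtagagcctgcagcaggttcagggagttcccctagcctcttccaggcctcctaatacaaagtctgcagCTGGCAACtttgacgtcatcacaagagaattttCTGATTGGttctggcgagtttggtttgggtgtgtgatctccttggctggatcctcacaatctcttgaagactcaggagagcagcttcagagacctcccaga
H2-Eb1 (chr17:34305617-34305916, plus strand): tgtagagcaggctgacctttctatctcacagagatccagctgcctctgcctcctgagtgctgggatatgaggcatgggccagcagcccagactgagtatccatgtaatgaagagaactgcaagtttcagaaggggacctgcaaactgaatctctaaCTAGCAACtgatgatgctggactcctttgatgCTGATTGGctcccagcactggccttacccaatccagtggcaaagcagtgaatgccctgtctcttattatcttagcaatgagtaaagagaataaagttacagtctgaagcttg
H2-D1 (chr17:35262844-35263143, plus strand): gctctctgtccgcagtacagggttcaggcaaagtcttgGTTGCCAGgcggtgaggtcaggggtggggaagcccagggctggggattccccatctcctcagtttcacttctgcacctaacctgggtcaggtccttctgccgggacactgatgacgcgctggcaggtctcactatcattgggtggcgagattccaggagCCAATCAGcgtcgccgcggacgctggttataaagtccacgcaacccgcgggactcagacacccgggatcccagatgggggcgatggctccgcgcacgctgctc
H2-K1 (chr17:34000298-34000597, minus strand): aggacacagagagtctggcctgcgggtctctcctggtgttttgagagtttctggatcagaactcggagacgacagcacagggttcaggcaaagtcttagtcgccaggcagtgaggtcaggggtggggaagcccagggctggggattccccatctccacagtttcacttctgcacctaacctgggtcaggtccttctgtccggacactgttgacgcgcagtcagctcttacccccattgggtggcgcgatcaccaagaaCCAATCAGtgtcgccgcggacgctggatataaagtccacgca

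In *H2-Aa* the X match began 84 bases and the Y match 51 bases before the start, and in *H2-Eb1* they began 94 and 62 bases before it, in the same order and on the same strand. In *H2-D1* both matches lay on the opposite strand, 212 and 53 bases before the start. In *H2-K1*, for which this was 1 of 2 listed starts, there was only a Y match, on the opposite strand and 8 bases after the start. RefSeq promoters were available for 26 of the 35 genes, and 1 start was searched in each. The class II genes *Cd74* and *H2-Ab1* were among those without a promoter entry and were not searched. The Y box letters occurred in 4 of the 26, those shown, and the X box letters in 4, the fourth being *Cd163*, the scavenger receptor for haemoglobin bound to haptoglobin. Of 32851 mouse promoters of the same length, 4.10% held the Y letters, 3.42% the X letters and 0.180% both. A match describes the letters and is not a measured binding site. Only exact letters were searched, so a box with other letters would be missed. The matches thus do not show which of these promoters hold or lack the X and Y module.

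The genes lie close together in part. On chromosome 17 lie 8 of the 35 (22.9%, against 4.81% of all annotated names), among them all 3 class II chain genes, *H2-K1*, *H2-D1* and *C4b* of the MHC region. *H2-Ab1* spans 34263209 to 34269419 (plus strand), *H2-Aa* 34282744 to 34287823 (minus strand) and *H2-Eb1* 34305867 to 34316674 (plus strand), all in GRCm38 with GENCODE M21. The C1q genes stand side by side on the minus strand of chromosome 4: *C1qb* from 136880129 to 136886187, *C1qc* from 136889804 to 136893065 and *C1qa* from 136895917 to 136898803. All 35 listed transcripts are annotated as protein coding.

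Total counts were between 6635242 and 8459004 per RNA library and between 3827862 and 7474602 per RPF library, and mitochondrial mRNAs took 49.8% to 58.2% of the RNA counts. Levels are given as CPM, the counts of a gene relative to its library's total scaled by a TMM factor. A level of 3 counts was equal to 0.303 to 0.448 CPM in RNA and 0.403 to 0.789 CPM in RPF. *Rpl3l* itself was lower in KO, at 43.9 ± 2.90 against 376.1 ± 44.3 CPM in RNA and at 8.63 ± 4.18 against 228 ± 33.7 CPM in RPF (SD, n = 3 each). The 10 cardiomyocyte markers of the labelled tissue summed to 46610 to 63940 CPM per RNA library. The first principal component of RNA (46.2% of the variance) set WT 3, KO 1 and KO 3 apart from WT 1, WT 2 and KO 2, and that of RPF (38.2%) set WT 1 apart. Each side of the RNA split held a single library of one genotype, so the comparison could not be repeated within a side.

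The immune genes were expressed in every library. Their summed level was 731 to 816 CPM in RNA WT and 704 to 722 CPM in RNA KO, and 3275 to 4358 CPM in RPF WT and 3529 to 3682 CPM in RPF KO. Markers of macrophages were detected throughout: *Adgre1* (the F4/80 antigen), *Csf1r* (the receptor for macrophage colony-stimulating factor), *Cd68* and *Mrc1* had counts in all 12 libraries. Markers of other leukocytes were also present in footprints. *Cd3e*, *Cd4* and *Cd8a* of T cells, *Ncr1* and *Gzmb* of natural killer cells and *Xcr1* of dendritic cells had 0 counts in all 6 RNA libraries. In RNA 0 of 13 T cell, 0 of 9 natural killer cell and 0 of 9 dendritic cell markers passed the filter on low counts. In RPF 2 of 13 T cell, 0 of 9 natural killer cell and 2 of 9 dendritic cell markers passed it. None of the T cell or dendritic cell markers was at 0 in all RPF libraries. The T cell markers summed to 11.2 to 24.2 CPM in RPF WT and 7.31 to 26.6 CPM in RPF KO. These sums were highest in WT 1 and KO 1, where *Cd5* had 102 and 130 counts, beside 17 to 37 in the other RPF libraries. The zeros in RNA thus do not show that these cells were absent.

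On a common scale per kilobase of coding sequence, *B2m* had the highest footprint level in WT, 1345 ± 314 CPM per kb (SD, n = 3). It was followed by *Cd74* with 345 ± 6.44, the lysozyme gene *Lyz2* with 336 ± 52.3 and *H2-D1* with 209 ± 59.9 CPM per kb. *Cd74* and *Lyz2* did not differ beyond their spread. Next came *C3* (176 ± 37.4), *C1qb* (147 ± 21.0), *C1qa* (140 ± 23.9), *C1qc* (135 ± 49.6) and *H2-K1* (132 ± 51.4 CPM per kb), whose ranges overlapped. The C1q chains, which are built into C1q in equal numbers, thus stood next to each other in this order. Leaving out *Itgam*, whose sequence is mostly shared with other listed names, the lowest levels were those of *Ptprc* (5.16 ± 0.736), *Ccr2* (3.24 ± 1.72) and *Clec4n* (2.05 ± 1.26 CPM per kb).

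**Figure D1:**
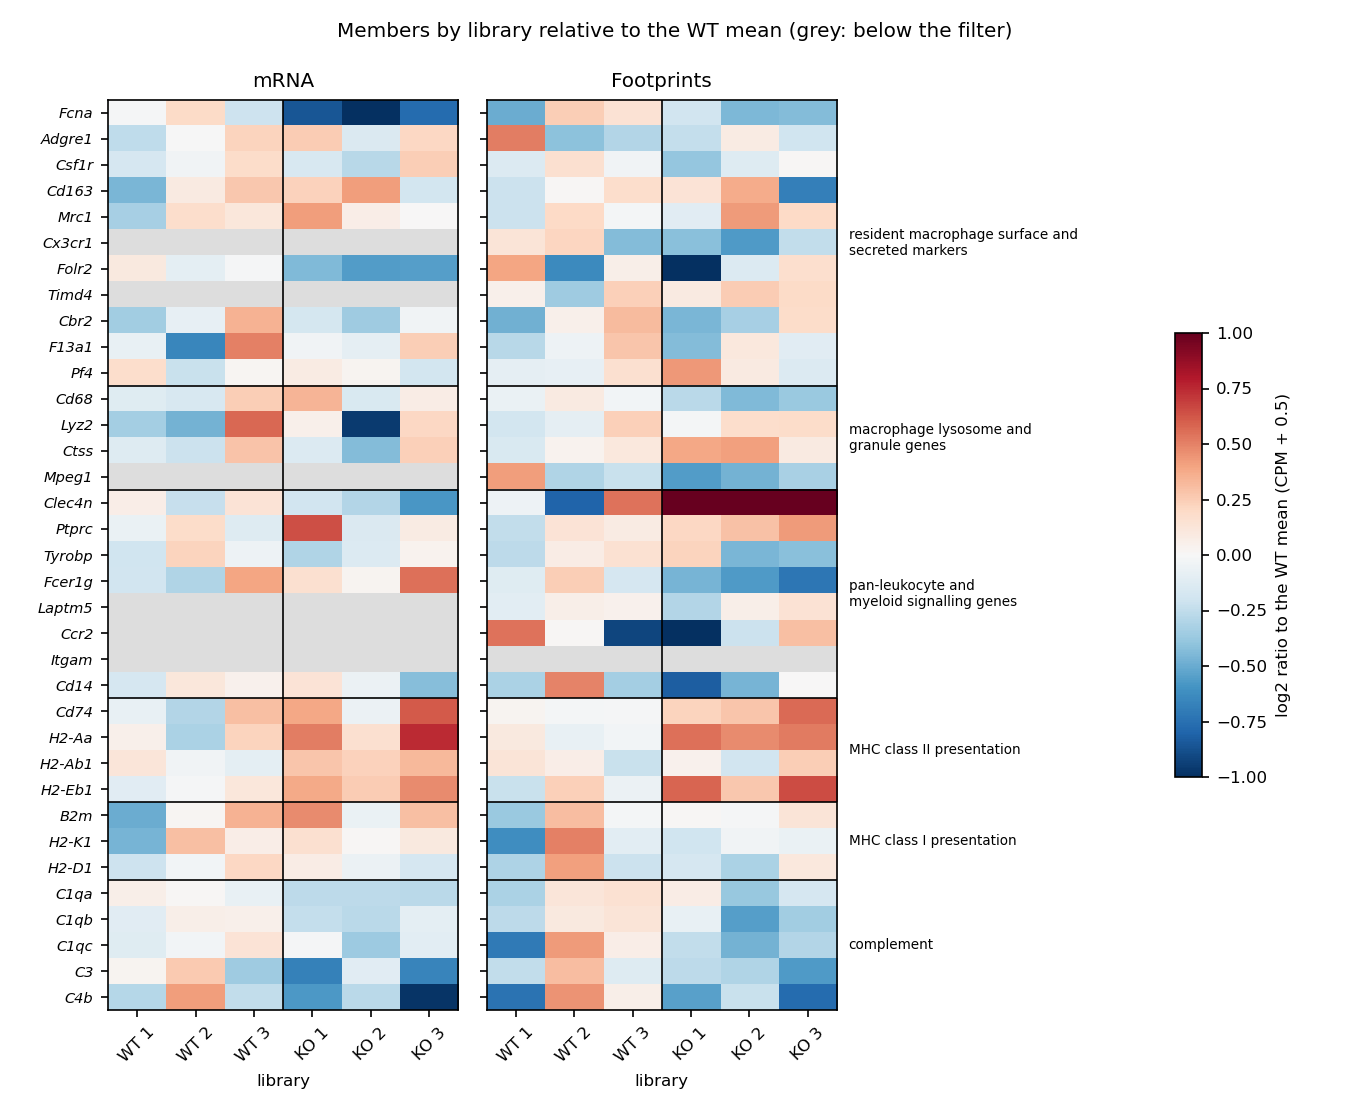
Level of each of the 35 genes (rows, by role) in each library (columns), as the log2 ratio to the WT mean of the same assay with 0.5 CPM added. Left, mRNA. Right, footprints. Grey rows were below the filter on low counts. The class II rows are red in nearly all KO libraries and most complement rows are blue in KO, while *Clec4n* differs in direction between the assays.

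In the comparison of KO with WT, 29 of the 35 genes passed the filter on low counts in RNA and 34 in RPF. *Cx3cr1*, *Timd4*, *Laptm5*, *Ccr2*, *Mpeg1* and *Itgam* were too low in RNA, and *Itgam* also in RPF. In edgeR's quasi-likelihood test with Benjamini-Hochberg adjustment over all genes, 0 of the 29 had an adjusted p below 0.05 in RNA, where 0.0119% of 8379 genes did, and 0 of the 34 in RPF, where 0.00897% of 11153 genes did. The lowest adjusted p among them was 0.999 in RNA and 0.833 in RPF. In DESeq2 likewise 0 were called in either assay. In RNA 3 of the 29 had an unadjusted p below 0.05 in DESeq2, beside 96 of 15705 genes. The 15705 include genes below the filter on low counts and the 29 do not, so these shares are not comparable. For RPF no such count is given here. Differences are therefore given as levels, with unadjusted p-values. Since the genes were chosen with earlier results known, their shares beside those of all genes are descriptions and not tests of the set.

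At an unadjusted p below 0.05 in edgeR there were 5 of the 29 genes in RNA, against 2.54% of all genes tested: *H2-Aa* and *H2-Eb1* higher in KO, and *Fcna*, *Folr2* and *C4b* lower. In RPF there were 6 of the 34, against 5.96% of all genes tested: *H2-Aa*, *H2-Eb1*, *Cd74* and *Clec4n* higher, and *C3* and *Mpeg1* lower. In RNA every KO library lay above every WT library for 2 genes (*H2-Ab1* and *H2-Eb1*; 4.14% of all genes tested) and below it for 3 (*Fcna*, *Folr2* and *C1qa*; 3.19%). In RPF every KO library lay above every WT library for 5 genes (*H2-Aa*, *H2-Eb1*, *Cd74*, *Ptprc* and *Clec4n*; 6.27% of all genes tested) and below it for 4 (*C3*, *Cd68*, *Fcer1g* and *Mpeg1*; 5.77%). *Clec4n* passed the filter in RPF only through its KO libraries, where it was high. Its place in these RPF counts is thus no support for a difference.

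The median log2 fold change, KO against WT, was -0.04 over the 29 genes in RNA (13 higher and 16 lower) and -0.12 over the 34 in RPF (13 higher and 21 lower), beside medians of -0.01 and 0.00 over all genes tested. The RNA median turned to 0.11 without WT 3. The roles differed in direction: all 4 class II genes were higher in KO in both assays, all 5 complement genes were lower in both, and the other roles held both directions. In whole tissue, fewer cells of a type and less RNA per cell cannot be told apart.

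*H2-Aa*, the alpha chain of the I-A class II molecule, had footprint levels of 97.9, 86.7 and 90.1 CPM in WT and 134.7, 127.1 and 131.5 CPM in KO, so that the KO libraries sat well above the WT libraries with little spread in either group. The log2 fold change was 0.52 (SE 0.14), with an unadjusted p of 0.0020 and an adjusted p of 0.833 in edgeR. In RNA the levels were 21.0, 16.2 and 23.7 CPM in WT and 29.2, 22.7 and 34.4 CPM in KO (log2 fold change 0.50, SE 0.21, unadjusted p = 0.037 in edgeR). Here KO 2 lay within the WT range.

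*H2-Eb1*, the beta chain of the I-E class II molecule, was separated in both assays. Its RNA level was 15.45, 16.6 and 18.2 CPM in WT and 22.0, 20.0 and 23.4 CPM in KO (log2 fold change 0.38, SE 0.16, unadjusted p = 0.040 in edgeR). Its footprint level was 53.75, 74.1 and 60.3 CPM in WT and 94.3, 75.75 and 99.1 CPM in KO (log2 fold change 0.52, SE 0.17, unadjusted p = 0.0086 in edgeR). The groups nearly touched in footprints, at WT 2 and KO 2.

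*Cd74*, the invariant chain on which class II molecules are assembled, had the highest footprint level per kilobase of the class II genes. Its footprint level was 296, 286 and 288 CPM in WT and 339, 352 and 429 CPM in KO (log2 fold change 0.36, SE 0.13, unadjusted p = 0.013 in edgeR), and KO 3 was the highest. In RNA the groups overlapped, with 42.9, 36.8 and 55.7 CPM in WT and 59.1, 43.3 and 69.5 CPM in KO (log2 fold change 0.34, SE 0.22), and the value was 0.18 without KO 3.

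*H2-Ab1*, the beta chain that pairs with the product of *H2-Aa*, was apart in RNA and not in footprints. In RNA it was 26.9, 24.1 and 23.1 CPM in WT and 30.1, 29.1 and 31.0 CPM in KO (log2 fold change 0.29, SE 0.15), with no overlap. In footprints it was 104, 99.6 and 81.4 CPM in WT and 97.6, 83.1 and 113 CPM in KO, and the log2 fold change was 0.04 (SE 0.16), within the spread of the libraries. The assay by genotype interaction, which tests a difference in footprints per RNA (translational efficiency, TE), was -0.22 on the log2 scale for *H2-Ab1* (SE 0.23, unadjusted p = 0.36 in edgeR).

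**Figure D2:**
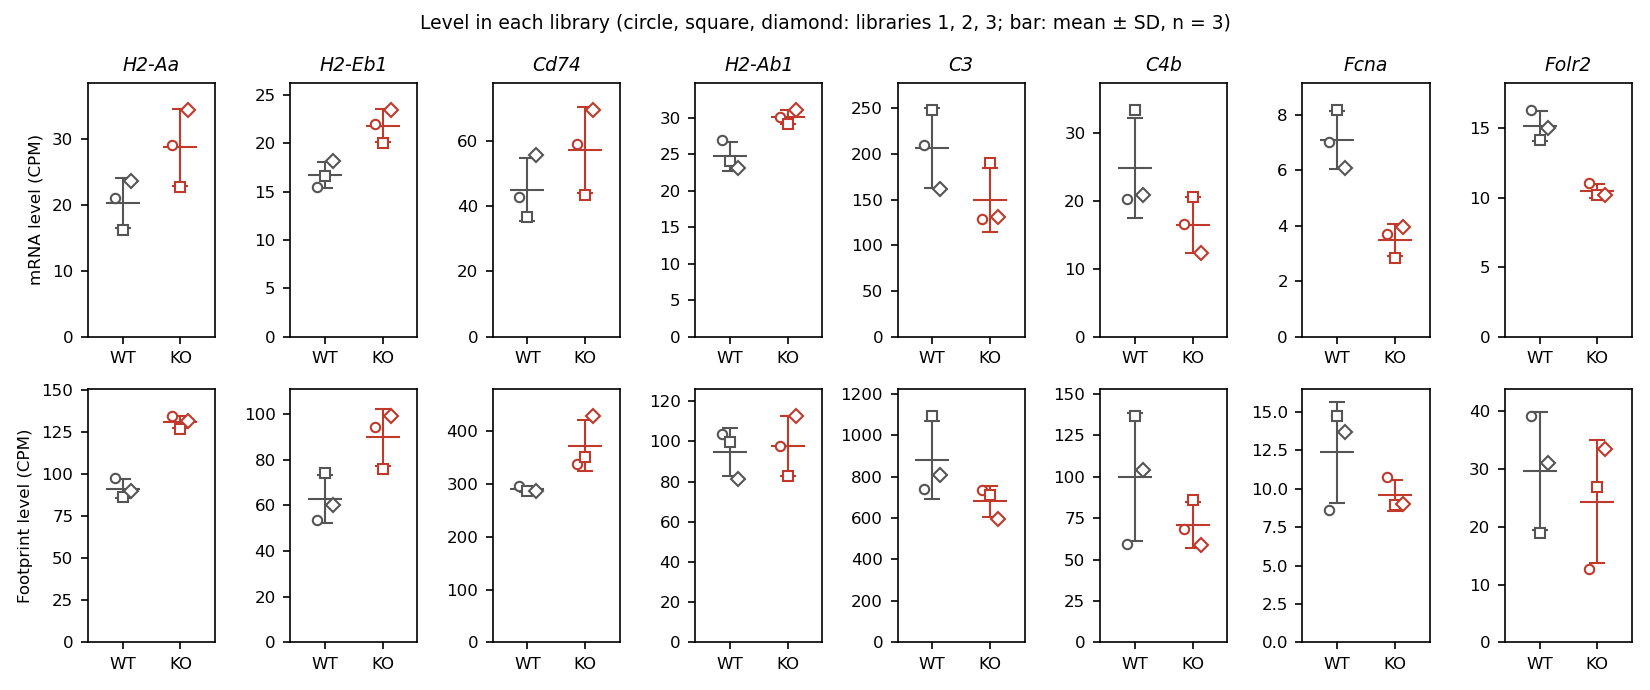
Level in CPM of 4 class II genes, 2 complement genes and 2 resident macrophage genes in each WT (grey) and KO (red) library, mRNA above and footprints below. Symbols mark libraries 1, 2 and 3, and bars the mean ± SD (n = 3). *H2-Aa* footprints lie at 86.7 to 97.9 CPM in WT and 127.1 to 134.7 CPM in KO, and *Fcna* and *Folr2* mRNA is lower in each KO library than in any WT library.

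The 4 class II genes together summed to 93.7 to 120.7 CPM in RNA WT and 115.2 to 158.4 CPM in RNA KO, and to 520 to 552 CPM in RPF WT and 638 to 773 CPM in RPF KO. Relative to the summed level of the 11 resident macrophage markers, the class II sum was 0.971 to 1.085 in RNA WT and 1.33 to 1.69 in RNA KO. In footprints this ratio was 0.767 to 0.930 in WT and 0.940 to 1.24 in KO. The groups did not overlap in either assay, though WT 1 and KO 2 were close in footprints. The RNA levels of *H2-Aa* and *Cd74* were also higher in WT 3, KO 1 and KO 3 than in the other RNA libraries, the split seen in the first RNA component, as were those of *Adgre1*, *B2m*, *Cd68*, *F13a1*, *Fcer1g* and *Lyz2* (8 of 29 genes, 27.6%, against 17.8% of all genes tested). In the other direction, *C3* was lower in those 3 libraries (1 of 29 genes, 3.45%, against 18.3% of all genes tested). The part of that split in these values was not tested.

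B cells and dendritic cells also carry class II. The 9 B cell markers summed to 5.44 to 7.26 CPM in RNA WT and 3.74 to 7.62 CPM in RNA KO, and to 5.13 to 10.97 CPM in RPF WT and 8.78 to 13.6 CPM in RPF KO. The 9 dendritic cell markers summed to 1.04 to 1.46 CPM in RNA WT and 1.01 to 2.54 CPM in RNA KO, and to 11.3 to 21.8 CPM in RPF WT and 9.81 to 17.0 CPM in RPF KO. Both sums overlapped between the genotypes in both assays. Their part in the class II levels was not tested.

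Of the 14 other genes of the class II pathway that were listed, 8 were tested in RNA and 10 in RPF, and 0 were called in either, with 0 and 1 at an unadjusted p below 0.05 in edgeR. In RPF 8 of the 10 were higher in KO (median log2 fold change 0.22) and in RNA 5 of the 8 (median 0.04). *H2-DMa*, part of the editor that loads peptide onto class II molecules, had a footprint level of 7.96 ± 1.89 CPM (WT) and 14.1 ± 6.12 CPM (KO) (SD, n = 3 each; log2 fold change 0.80, SE 0.36, unadjusted p = 0.043 in edgeR). *Rfxap*, a subunit of the RFX complex, was 2.26 ± 0.505 CPM (WT) and 3.38 ± 0.580 CPM (KO) in RNA (SD, n = 3 each; log2 fold change 0.55, SE 0.30). Each KO library lay above each WT library for *H2-DMa* in RPF and for *Rfxap* in RNA.

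The class I genes had fold changes in both directions in both assays, all within the spread of the libraries. *B2m*, the light chain of all class I molecules, had footprint levels of 375, 600 and 478 CPM in WT and 488, 480 and 530 CPM in KO (log2 fold change 0.05, SE 0.15). The KO libraries lay within the wide WT range. *H2-D1*, a class I heavy chain, was 41.3, 47.0 and 55.2 CPM in RNA WT and 50.4, 45.9 and 42.4 CPM in RNA KO (log2 fold change -0.05, SE 0.17). *H2-K1*, the other heavy chain, had log2 fold changes of 0.09 (SE 0.20) in RNA and -0.09 (SE 0.21) in RPF, and its genotypes overlapped. *H2-D1* and *H2-K1* share 302 identical windows of 28 bases with each other, and 30.4% and 27.1% of their windows occur in some other listed gene, so their separate counts are uncertain. Among 20 other genes of the class I pathway, 17 were tested in RNA (9 higher in KO) and 19 in RPF (12 higher), and 0 were called, with 0 at an unadjusted p below 0.05 in edgeR.

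All 5 complement genes were lower in KO in both assays, with a median log2 fold change of -0.27 in RNA and -0.33 in RPF, the latter -0.18 without WT 2. *C3*, the central component whose cleavage tags targets, had the highest footprint level per kilobase of the 5. Its footprint level was 740, 1092 and 806 CPM in WT and 733, 713 and 594 CPM in KO (log2 fold change -0.37, SE 0.15, unadjusted p = 0.024 in edgeR). The highest KO library was just below the lowest WT library, and the value was -0.18 without WT 2, the highest library. In RNA *C3* was 210, 248 and 161 CPM in WT and 129, 190.5 and 131 CPM in KO (log2 fold change -0.46, SE 0.22), and KO 2 lay within the WT range. These RNA levels followed the split of the first RNA component, with WT 3, KO 1 and KO 3 below the other libraries.

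*C4b*, which encodes the C4 that C1q-bound proteases cleave, had RNA levels of 20.3, 33.3 and 20.8 CPM in WT and 16.5, 20.5 and 12.3 CPM in KO. The log2 fold change was -0.60 (SE 0.25, unadjusted p = 0.038 in edgeR), and -0.33 without WT 2. In footprints *C4b* was 59.7, 137 and 104 CPM in WT and 68.5, 85.7 and 58.5 CPM in KO (log2 fold change -0.49, SE 0.24), and -0.20 without WT 2. The groups overlapped in both assays. *C4a*, a near-identical copy, was not analysed here, so the *C4b* counts may hold reads of both.

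The C1q chains were close to each other in direction. *C1qa*, the A chain, had RNA levels of 70.4, 67.9 and 64.0 CPM in WT and 56.15, 56.0 and 55.75 CPM in KO. The KO libraries were nearly identical and all below the WT libraries, and the log2 fold change was -0.27 (SE 0.15, unadjusted p = 0.10 in edgeR). In footprints *C1qa* was 83.3, 112.5 and 115 CPM in WT and 109, 79.6 and 92.0 CPM in KO (log2 fold change -0.15, SE 0.17), with overlap. *C1qb* and *C1qc*, the B and C chains, had log2 fold changes of -0.20 (SE 0.16) and -0.16 (SE 0.17) in RNA and of -0.31 (SE 0.17) and -0.33 (SE 0.22) in RPF, and their groups overlapped. Relative to the resident macrophage markers, the C1q sum was 1.44 to 1.70 in RNA WT and 1.47 to 1.53 in RNA KO, so it overlapped.

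Among 32 other complement genes, 11 were tested in RNA (4 higher in KO, 7 lower) and 17 in RPF (8 higher, 9 lower). None was called, and 0 reached an unadjusted p below 0.05 in edgeR. Both directions were thus present among the other complement genes. Fibroblast markers, whose cells can also make C3, were higher in KO for 9 of 10 genes in RNA and 8 of 10 in RPF, with sums of 1014 to 1307 CPM in RNA WT and 1160 to 1279 CPM in RNA KO. Adipocyte markers were lower in KO for 4 of 5 genes tested in RNA (median log2 fold change -0.43) and 6 of 6 in RPF (median -0.17), with 0 called. Their sum was 503 to 885 CPM in RNA WT and 591 to 912 CPM in RNA KO, with *Lep* at 0 counts in RNA, and 735.5 to 1567 CPM in RPF WT and 938 to 1183 CPM in RPF KO. In RPF this sum was highest in WT 2, as were *C3* and *C4b*, but also *B2m*, *H2-D1* and *H2-K1*. In RNA the sum was highest in KO 2, while *C3* and *C4b* were highest in WT 2. The part of either cell type in the complement levels was not tested.

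Of the resident macrophage markers, 9 of 11 were tested in RNA (4 higher, 5 lower in KO) and all 11 in RPF (4 higher, 7 lower), with median log2 fold changes of -0.02 and -0.13. Their summed level was 96.5 to 113 CPM in RNA WT and 86.5 to 95.2 CPM in RNA KO. In footprints it was 593 to 677 CPM in WT and 535 to 678 CPM in KO. The sums were thus slightly apart in RNA and overlapped in footprints.

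*Fcna*, which encodes ficolin A, a lectin made by macrophages that can start complement, had the largest negative difference among the 29 genes tested in RNA. Its RNA level was 7.01, 8.16 and 6.06 CPM in WT and 3.68, 2.84 and 3.94 CPM in KO, from 49 to 63 counts per WT library and 19 to 39 per KO library. The log2 fold change was -1.003 (SE 0.24, unadjusted p = 0.0018 and adjusted p = 0.999 in edgeR). In footprints it was 8.62, 14.7 and 13.7 CPM in WT and 10.75, 8.92 and 8.99 CPM in KO (log2 fold change -0.36, SE 0.32), with overlap at WT 1.

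*Folr2*, the folate receptor beta of tissue macrophages, was likewise apart in RNA only. Its RNA level was 16.3, 14.1 and 15.05 CPM in WT and 11.05, 10.2 and 10.2 CPM in KO, with little spread (log2 fold change -0.53, SE 0.17, unadjusted p = 0.0098 in edgeR). In footprints the spread was wide, with 39.2, 18.9 and 31.0 CPM in WT and 12.8, 26.9 and 33.45 CPM in KO (log2 fold change -0.30, SE 0.32), and the value was 0.01 without KO 1. The TE difference was 0.67 (SE 0.38) for *Fcna* and 0.25 (SE 0.43) for *Folr2*, and neither had an unadjusted p below 0.05 in edgeR.

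The other 9 markers overlapped between the genotypes in footprints. *Csf1r* had footprint levels of 155, 190 and 167 CPM in WT and 130, 156 and 172 CPM in KO (log2 fold change -0.16, SE 0.15). *Pf4*, a chemokine known as platelet factor, had RNA levels of 32.5, 24.5 and 29.1 CPM in WT and 30.4, 29.3 and 25.15 CPM in KO (log2 fold change -0.02, SE 0.17). For the other 7 markers, *Adgre1*, *Cd163*, the mannose receptor *Mrc1*, the carbonyl reductase *Cbr2*, the factor XIII subunit *F13a1*, the phosphatidylserine receptor *Timd4* and the fractalkine receptor *Cx3cr1*, log2 fold changes in RPF lay between -0.42 (*Cx3cr1*, SE 0.27) and 0.19 (*Mrc1*, SE 0.17), with overlap in each. *Timd4*, below the filter in RNA, had 7, 6 and 10 RNA counts in the WT libraries and 2, 5 and 6 in the KO libraries, and its scaled RNA levels (0.777 to 1.045 CPM in WT, 0.295 to 0.747 CPM in KO) did not overlap.

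*Lyz2* had the highest footprint level per kilobase of the lysosome and granule genes. Its RNA level varied widely within each group, with 10.6, 9.59 and 20.4 CPM in WT and 14, 6.72 and 15.7 CPM in KO, while its footprint level was 132.5, 141 and 177 CPM in WT and 148, 170 and 170 CPM in KO (log2 fold change 0.11, SE 0.15). Of its windows of 28 bases, 36.4% also occur in *Lyz1*, a closely related gene. *Cd68*, a glycoprotein of macrophage lysosomes, had footprint levels of 37.5, 41.8 and 38.4 CPM in WT and 32.4, 28.8 and 30.3 CPM in KO, with no overlap (log2 fold change -0.36, SE 0.18, unadjusted p = 0.064 in edgeR). Its RNA level overlapped, and the RNA log2 fold change was 0.10 (SE 0.23).

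*Mpeg1*, which encodes a pore-forming protein of phagosomes, had footprint levels of 113, 68.6 and 72.6 CPM in WT and 57.5, 61.1 and 67.5 CPM in KO. All KO libraries lay below all WT libraries (log2 fold change -0.45, SE 0.19, unadjusted p = 0.031 in edgeR), and the value was -0.19 without WT 1, which was far above the rest. WT 1 was the library that the first RPF component set apart. In RNA *Mpeg1* had 0, 1 and 3 counts in WT and 3, 3 and 6 counts in KO, too few to test. *Ctss*, the cathepsin that trims the invariant chain, had a footprint level of 41.3 ± 3.70 CPM (WT) and 50.9 ± 6.09 CPM (KO) (SD, n = 3 each; log2 fold change 0.31, SE 0.18), with overlap.

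Among the pan-leukocyte and myeloid signalling genes, *Clec4n*, a C-type lectin that recognises fungal mannans, stood apart in footprints. It had 6, 2 and 10 footprint counts in the WT libraries and 35, 32 and 21 in the KO libraries, which scaled to 1.23, 0.526 and 2.11 CPM in WT and 4.70, 4.68 and 4.39 CPM in KO. The log2 fold change was 1.79 (SE 0.65, unadjusted p = 0.015 and adjusted p = 0.834 in edgeR). Of the WT libraries only WT 3 reached 10 counts, so the gene passed the filter in RPF through its KO libraries. Since it was high there, its p-value in RPF is no support for a difference. In RNA it had 13, 11 and 19 counts in the WT libraries and 10, 9 and 10 in the KO libraries (log2 fold change -0.49, SE 0.35). All values rest on 35 counts or fewer per library. Neutrophil markers were also higher in KO footprints. Of 13, 7 were tested in RPF and all 7 were higher (median log2 fold change 0.95), with 0 called and 1 at an unadjusted p below 0.05 in edgeR, and the sum over the 13 was 19.9 to 55.9 CPM in RPF WT and 44.9 to 82.0 CPM in RPF KO. In RNA 2 were tested, both lower, and *Mmp8* and *Ngp* had 0 counts. Their part in the *Clec4n* footprints was not tested.

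The interaction of assay and genotype was tested for 29 of the 35 genes, and 0 were called, where 0% of 8044 genes were. *Clec4n* was the 1 gene of the 29 with an unadjusted p below 0.05 in edgeR, against 3.73% of all genes tested. Its TE log2 difference was 2.28 (SE 0.63, unadjusted p = 0.0022 and adjusted p = 0.9997 in edgeR). As in RPF, *Clec4n* entered this test through its high KO footprints, so the p-value is no support for a difference. The median over the 29 was 0.03, with 15 higher and 14 lower in KO.

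*Ptprc*, the tyrosine phosphatase that marks all nucleated blood cells, was 15.0, 19.7 and 19.0 CPM in RPF WT and 20.7, 22.1 and 24.25 CPM in RPF KO (log2 fold change 0.32, SE 0.23, unadjusted p = 0.18 in edgeR). The groups narrowly did not overlap. *Fcer1g*, the signalling chain shared by Fc receptors, went the other way, with 13.95, 18.1 and 13.5 CPM in RPF WT and 10.9, 10.1 and 8.99 CPM in RPF KO (log2 fold change -0.60, SE 0.29, unadjusted p = 0.055 in edgeR). Its RNA log2 fold change was 0.31 (SE 0.34). *Tyrobp*, an adaptor that pairs with Trem2 and other receptors, was 11.6, 15.7 and 12.9 CPM in RNA WT and 10.8, 12.1 and 13.7 CPM in RNA KO (log2 fold change -0.13, SE 0.19). It overlapped there and in RPF (log2 fold change -0.18, SE 0.24).

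*Laptm5*, a lysosomal membrane protein of blood cells, had nearly level footprints, with 46.2, 51.5 and 51.05 CPM in WT and 40.45, 51.6 and 55.0 CPM in KO (log2 fold change -0.02, SE 0.18). *Cd14*, which hands lipopolysaccharide to its receptor, had log2 fold changes of -0.13 (SE 0.28) in RNA and -0.41 (SE 0.32) in RPF, with overlap. *Ccr2*, the receptor that brings monocytes into tissue, had 8 to 27 footprint counts per WT library and 8 to 22 per KO library (log2 fold change -0.34, SE 0.68). *Itgam*, an integrin subunit of myeloid cells, had at most 5 footprint counts in any library. Since 75.2% of its windows of 28 bases also occur in other listed names, most of these in *Gm49368*, its low count gives no level of the gene.

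**Figure D3:**
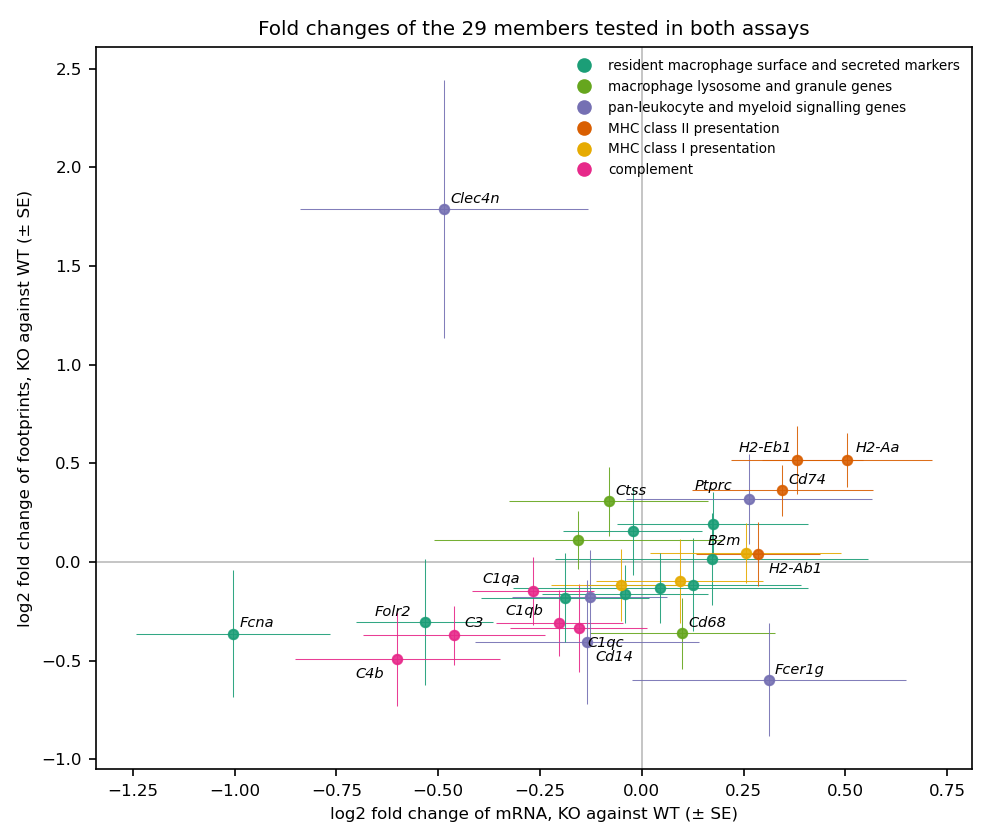
Log2 fold change, KO against WT, of mRNA (x axis) and footprints (y axis) for the 29 genes tested in both assays, coloured by role, with bars of 1 SE. The class II genes lie in the upper right and the complement genes in the lower left, and *Clec4n* lies alone at -0.49 in mRNA and 1.79 in footprints.

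Across the 29 genes, the fold changes in RNA and RPF had the same sign for 20 (69.0%), against 52.4% of 8043 genes tested in both assays. Their Pearson correlation was 0.19 and their Spearman correlation 0.51. Without *Clec4n* r was 0.60 and rho 0.64 (n = 28), against r = 0.05 over all genes. Genes are the points here and not independent replicates, and an RNA and an RPF library with one number may come from one heart.

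Footprints per RNA, the ratio of summed footprint to summed RNA counts scaled to the median gene tested in both assays, ranged widely among these genes. Over the 29 tested in both, the median was 1.38 in WT (0.233 to 12.04) and 1.28 in KO (0.286 to 10.6). In WT the lowest were *Clec4n* (0.233, exact 95% interval 0.127 to 0.413, which covers counting error only), *Pf4* (0.246), *C1qa* (0.472), *C1qb* (0.507) and *Fcna* (0.534). The highest were *F13a1* (12.04, interval 9.45 to 15.6), *Cd163* (9.88), *Mrc1* (5.99) and *B2m* (5.07). In KO *F13a1* was 10.6, *Cd163* 9.46 and *Mrc1* 6.17, so the order at the top was the same. *C1qc* had a ratio of 1.11 in WT, above those of *C1qa* and *C1qb*, although the chains had like footprint levels per kilobase.

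Several macrophage and leukocyte genes were nearly absent from RNA while they had footprint counts, which were few for *Ccr2*. *Mpeg1* had 1157 footprint counts against 4 RNA counts in WT, a ratio of 161 (interval 62.7 to 592), and 1169 against 12 in KO (36.5, interval 20.8 to 70.9). *Cx3cr1* had 248 footprint counts against 1 RNA count in WT (138, interval 24.6 to 5475) and 263 against 4 in KO (24.7, interval 9.52 to 91.2). *Laptm5* had 663 against 18 in WT (20.5) and 917 against 14 in KO (24.6), and *Ccr2* had 49 against 0 in WT, for which the exact 95% interval of the ratio began at 7.12.

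The ratio went with the length of the annotated 3′ UTR. Across the 34 genes tested in RPF, Spearman's rho between the ratio (with 0.5 counts added) and 3′ UTR length was 0.75 in WT, and across 10977 genes it was 0.47. For coding length rho was 0.46 across the 34 and 0.13 across all genes. The 13 immune genes with 3′ UTRs under 250 bases had a median ratio of 0.694, beside 0.455 for all 1547 such genes. The 6 genes *Ptprc*, *Timd4*, *F13a1*, *Laptm5*, *Csf1r* and *Mpeg1*, with 1099 to 1941 bases, had a median of 8.01, beside 3.13 for all 2697 genes in that class of lengths, and *Cx3cr1* and *Ccr2*, with 2587 and 2701 bases, had the longest. These are descriptions across genes, which share libraries, and the region the authors counted and the RNA quality are not given in the sources used here. The cause was not tested.

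**Figure D4:**
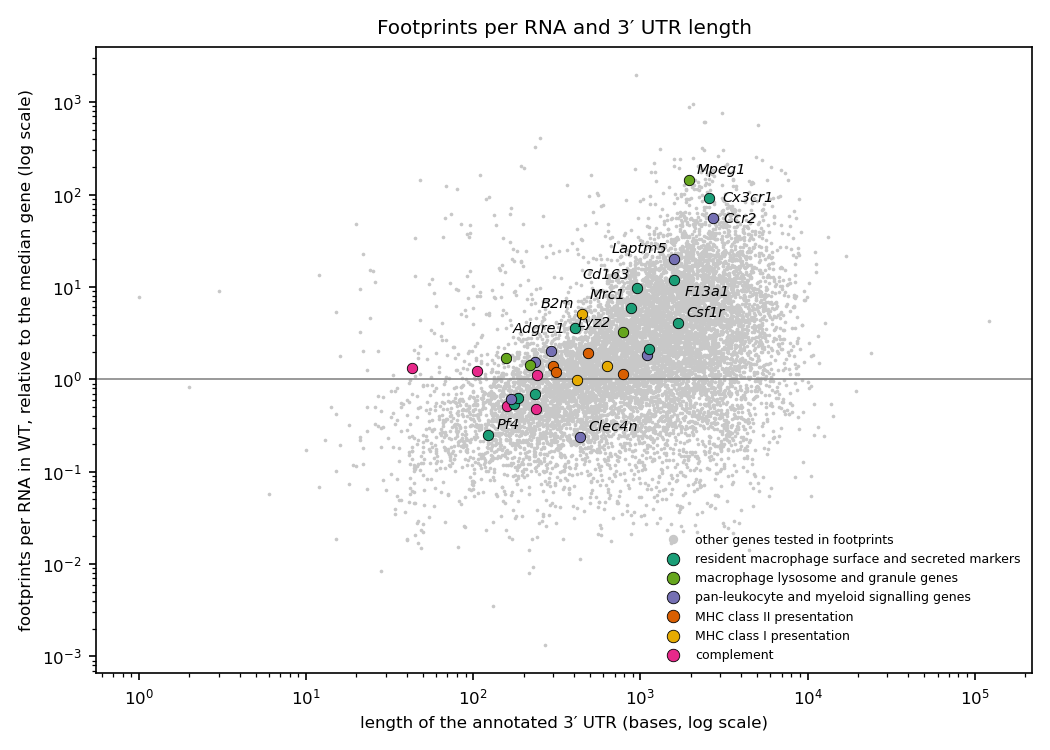
Footprints per RNA in WT, relative to the median gene and with 0.5 counts added (y axis, log scale), against annotated 3′ UTR length in bases (x axis, log scale) for the immune genes (coloured by role) and the other genes tested in footprints (grey). The 13 immune genes with 3′ UTRs under 250 bases lie between 0.247 (*Pf4*) and 1.72 (*Cd68*), on both sides of 1, and *Mpeg1*, *Cx3cr1* and *Ccr2*, with long ones, lie highest.

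Other macrophage genes and signals were checked from lists. Of 32 other macrophage genes, 18 were tested in RNA (5 higher, 13 lower in KO, median -0.08) and 28 in RPF (11 higher, 17 lower, median -0.09), and 0 were called. *Trem2*, a lipid receptor of macrophages that signals through Tyrobp, was the 1 with an unadjusted p below 0.05 in edgeR in each assay. Its RNA level was 2.81 ± 0.449 CPM (WT) and 1.69 ± 0.205 CPM (KO) (log2 fold change -0.73, SE 0.30) and its footprint level 8.69 ± 4.37 and 4.003 ± 1.27 CPM (log2 fold change -1.13, SE 0.50; SD, n = 3 each). The groups did not overlap in RNA and did in RPF.

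Of 25 growth factors and chemokines of macrophages, 10 were tested in RNA (5 higher, 5 lower) and 11 in RPF (9 higher, 2 lower), with 0 called and 0 at an unadjusted p below 0.05 in edgeR. *Ccl2*, the ligand of Ccr2, was 1 of the 2 that were lower in RPF, against 9 that were higher. It had a footprint level of 3.996 ± 1.09 CPM (WT) and 1.88 ± 0.728 CPM (KO) (SD, n = 3 each; log2 fold change -1.08, SE 0.64), lower in each KO library. These levels rest on few counts, 22, 18 and 13 in WT and 8, 17 and 10 in KO. Of 30 interferon response genes, which include inducers of MHC genes, 25 were tested in RNA (17 higher, 8 lower, median 0.12) and 30 in RPF (19 higher, 11 lower, median 0.12), with 0 called. In RPF *Bst2* (log2 fold change -0.57, SE 0.21) and *Isg15* (-0.66, SE 0.30) had unadjusted p-values of 0.016 and 0.045 in edgeR, both lower in KO.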

How the data were processed

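Left ventricular tissue of WT and Rpl3l-/- mice was homogenised with cycloheximide, and RNA and footprint libraries were made from undigested and RNase I treated lysate, per the labels' protocols. The authors deposited 1 table per library of whole-number read counts for 21669 transcript names. Adapters were trimmed with cutadapt 1.18 and reads aligned with Bowtie2 2.4.2, per the submitters' processing notes. The genome build, the region counted, the use of strand and the treatment of reads with several matches are not given in the sources used here, so counts of near-identical genes are uncertain.

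The 35 genes were matched by symbol, and the genes, lists and tests were chosen with earlier results of these data known. Values in every library are given for genes with an unadjusted p below 0.05, with groups that do not overlap, or with the highest mean CPM of their role, and for each other list at most the 2 genes of lowest p in an assay are named. Genes passing filterByExpr at a minimum count of 10 were scaled with TMM factors and tested with edgeR 4.0.16 (quasi-likelihood, R 4.3.3) over all genes, within RNA, within RPF, and for TE as the assay by genotype interaction over 12 libraries. Calls needed a Benjamini-Hochberg adjusted p below 0.05. The scripts were tested on simulated data. The p-values test a difference between groups against the spread between these libraries. For TE the 12 libraries were treated as independent. Alternatives were DESeq2 1.42.0, median-of-ratios scaling, no filter, removal of the mitochondrial rows, a replicate block and leaving out each library. Gene positions are from GENCODE M21 (GRCm38), which matched 98.874% of names, and promoters from RefSeq (GRCm38.p6).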

Additional observations from a re-analysis of the deposited data

How the results depend on the processing

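None of the 35 genes was called under any setting run, in edgeR or DESeq2, and of 517 alternative values of single genes 493 kept their direction and their side of the threshold while 24 reversed, all on leaving out a library. Without the filter on low counts, 4 genes were called in RNA, 60 in RPF and 3 in TE. In RPF, 6 were called by DESeq2, 4 with the replicate block, and 1 to 2 on leaving out a library, and the cause was not tested. In TE, 0 were called otherwise, with 300 at an unadjusted p below 0.05 in edgeR. Same-numbered WT and KO libraries had correlations of -0.182, 0.332 and 0.387 in RNA and of 0.0591, 0.0298 and 0.00553 in RPF. With so few libraries per group, these values cannot show whether same-numbered libraries were handled together. With the replicate block 1 gene was called in RNA and 0 in TE, and the medians of the immune genes were -0.05 in RNA, -0.11 in RPF and 0.02 in TE. Not every library correlated best with its own number, since WT 3 had 0.301 with KO 1 in RNA, where WT 1 had -0.182. Leaving out a library in turn moved the median of the immune genes in RNA between -0.12 and 0.11. Single log2 fold changes that turned were, in RNA, *Cd68* (-0.044 to 0.26), *Csf1r* (-0.23 to 0.067), *H2-D1* (-0.15 to 0.062), *Lyz2* (-0.39 to 0.28), *Pf4* (-0.12 to 0.076) and *Ptprc* (-0.024 to 0.42). In RPF they were *B2m* (-0.11 to 0.23), *Folr2* (-0.59 to 0.014), *H2-Ab1* (-0.065 to 0.15), *H2-D1* (-0.25 to 0.14), *Laptm5* (-0.10 to 0.11) and *Pf4* (-0.016 to 0.28), and in TE *Cd74* (-0.13 to 0.15) and *H2-Aa* (-0.089 to 0.20). The class II median stayed between 0.29 and 0.49 in RNA and between 0.35 and 0.47 in RPF. Depth limits *Clec4n*, *Ccr2*, *Itgam* and the genes below the RNA filter most.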

Other observations

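Cells that share the tissue with macrophages showed differences of their own, none called. Of the 10 endothelial markers, 9 were higher in KO in RNA (median log2 fold change 0.28), with sums of 225 to 226 CPM in WT and 237 to 265 CPM in KO, and 6 were higher in RPF. Of the 8 mast cell markers, 4 were tested in RNA (3 higher) and 6 in RPF (4 higher). *Tpsb2*, a mast cell tryptase, was 1.11 ± 0.0638 CPM (WT) and 2.42 ± 1.43 CPM (KO) in RNA (SD, n = 3 each; log2 fold change 1.07, SE 0.46, unadjusted p = 0.0435 in edgeR). It had 8, 8 and 11 RNA counts in WT and 13, 27 and 13 in KO. The gene thus passed the filter through its KO libraries, and this p-value is no support for a difference. In RPF *Tpsb2* was 4.545 ± 2.75 CPM (WT) and 4.44 ± 4.33 CPM (KO) (log2 fold change 0.02, SE 0.765), with overlap. *Mmp9*, a gelatinase of neutrophil granules, had a footprint level of 6.42 ± 3.67 CPM (WT) and 12.3 ± 1.68 CPM (KO) (SD, n = 3 each; log2 fold change 0.95, SE 0.43, unadjusted p = 0.0448 in edgeR), higher in each KO library, and was below the filter in RNA.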
